A study of Homo sapiens with 8 samples.

Results

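Transcripts bound by several ribosomes were compared with all transcripts of the same cells in HT-144, an established human melanoma line, after siRNA against DDX3X. The libraries were chosen by their labels: 2 of polysomal RNA and 2 of total RNA, all with DDX3X siRNA, 4 of the 8 libraries in the series. The other 4 hold the same fractions from cells given control siRNA, and they share the line, the fractionation and the paired reads of 75 bp. All 4 groups thus differ only in the siRNA and the RNA fraction, as far as the labels say. The sources used here state neither the siRNA sequences, the dose and the time after delivery nor whether replicates are separate cultures. P-values therefore speak only of the spread between these libraries, and that spread may be technical.

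During translation several ribosomes can follow one another along an mRNA, and such polysomes sediment faster in a sucrose gradient than free RNA or single ribosomes. The share of a transcript in the polysomal fraction, set against its share in total RNA, is a common measure of how far it is engaged in translation. Non-coding RNAs and stored mRNAs are usually poor in polysomes, and abundant housekeeping mRNAs are often rich in them. DDX3X is an X-linked DEAD-box RNA helicase with a known part in translation initiation, mainly on mRNAs with structured leaders.

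The measured values were FPKM, fragment numbers per unit of transcript length, relative to the size of the library, for each transcript isoform. Of 65514 isoforms with readable values, 15531 reached 1 FPKM in at least 2 of the 8 libraries and were tested. The second-highest value of the isoform nearest this limit was 1.00003 FPKM inside it and 0.999993 FPKM outside it, and 3773 tested isoforms lay within 2-fold above the limit. Isoforms are known here by UCSC-style identifiers that the files do not pair with gene names, so DDX3X itself and the fixed gene lists were not analysed here. The knockdown was for that reason not checked, nor were the melanocyte markers of the line. FPKM holds no read counts, so depth was unknown. Between 12786 and 13481 isoforms reached 1 FPKM in each of the 4 DDX3X siRNA libraries. The 10 most abundant rows held 83.5% to 93.5% of the summed FPKM in each of these libraries. They held 55.9% and 42.2% in the control polysomal libraries, and 90.8% and 89.7% in the control total RNA libraries. The polysomal libraries of the 2 siRNAs, which the test between siRNAs sets beside each other, thus differed in this share.

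Polysomal RNA of the DDX3X siRNA cells held 1929 isoforms at a higher and 1006 at a lower level than total RNA, which is 12.4% and 6.48% of those tested and 18.9% in all (limma, adjusted p under 0.05). Isoforms higher in polysomal RNA were mostly of middle to high level and differed by moderate amounts, with a median log2 difference of 0.77. Isoforms lower in polysomal RNA were scarcer, less abundant and further apart, with a median log2 difference of -0.91. All differences are of log2(FPKM + 1), a scale that understates the difference of low isoforms. Differences over 2-fold made up 24.3% of the higher calls (468) and 41.7% of the lower calls (419). Over 4-fold there were 26 higher and 71 lower isoforms, and over 16-fold 3 higher and 30 lower. Among the 26 higher isoforms, 3 were at 0 in both total RNA libraries, and these were the 3 over 16-fold. Among the 71 lower isoforms, 26 had a listed 0 in some DDX3X siRNA library, and 24 were at 0 in both polysomal libraries. The counts over 4-fold depended on low values: they were 92 and 149 at a pseudocount of 0.1 FPKM, 55 and 113 at 0.5 FPKM, 13 and 46 with no filter, and 25 and 45 without isoforms listed at 0. Without polysomal replicate 2 they were 23 and 112. At an unadjusted p under 0.05, 3208 isoforms (20.7%) were higher and 2002 (12.9%) lower. A fit of the 4 DDX3X siRNA libraries alone called 897 higher and 432 lower isoforms, and with no filter on level 1182 and 603 passed among 47101.

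The median isoform differed by 0.07 on the log2 scale, and the quartiles of all tested isoforms were -0.29 and 0.43. FPKM is a share of the RNA sequenced in each fraction, so these differences are relative to the other transcripts, and the amount of RNA on polysomes was not measured. In bulk RNA, fewer cells with a transcript and less of it per cell cannot be told apart either. Of the calls, 65.7% were higher isoforms with FPKM as deposited, 51.6% after median-of-ratios scaling (1833 higher, 1719 lower) and 51.7% after quantile normalization (1686 and 1575). The size of the majority of higher isoforms therefore depended on the scaling. Of the 2935 calls, 2928 kept their sign after quantile normalization.

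**Figure D1:**
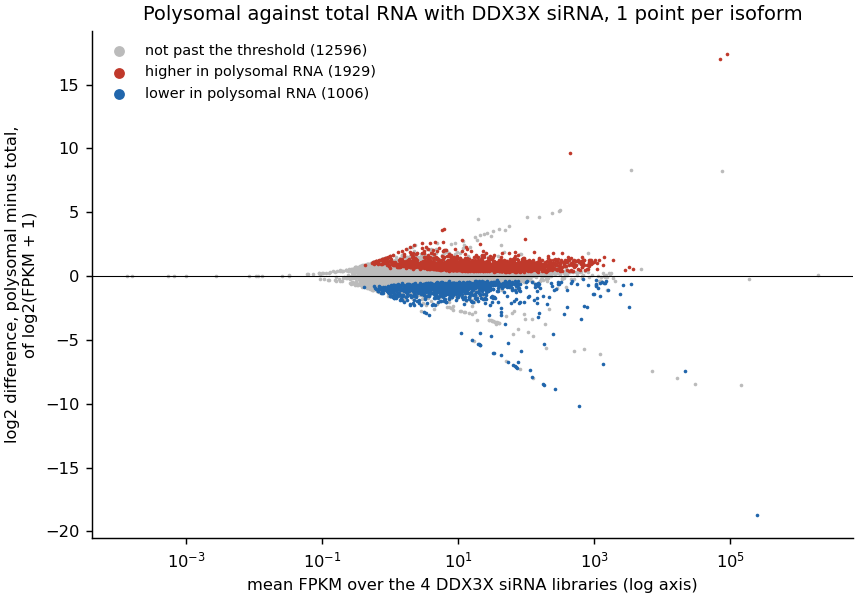
Log2 difference between polysomal and total RNA with DDX3X siRNA (vertical axis) against the mean FPKM of the 4 libraries (horizontal log axis), 1 point per tested isoform, coloured by the limma call at an adjusted p of 0.05. The 1929 higher isoforms form a band that is dense at middle levels, and the 71 isoforms lower by over 4-fold lie at the bottom.

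The extremes show what each end of the comparison looks like. The isoforms named are the 2 highest and the 2 lowest among 1705 higher and 677 lower isoforms that passed the test, had no overlap between libraries of the fractions, were above 0 in all 8 libraries and reached a mean of 5 FPKM in the higher fraction. Isoform uc001vxa.1 stood at 42360 and 43129 FPKM in the total RNA libraries with DDX3X siRNA, and at 233 and 246 FPKM in the polysomal libraries. Its level in total RNA was thus 179 times that on polysomes, and replicates were close together in both fractions. By mean level it ranked 6th of all tested isoforms in total RNA and 252nd in polysomal RNA. The log2 difference was -7.48 ± 0.11 (SE; limma adjusted p = 1.08e-06).

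Isoform uc032wyd.1 had 2409 and 3033 FPKM in total RNA and 20.3 and 22.9 FPKM in polysomal RNA with DDX3X siRNA. It was the 16th most abundant tested isoform in total RNA and ranked 2377th on polysomes. The mean ratio was 126, and the log2 difference -6.90 ± 0.39 (SE; limma adjusted p = 0.000501).

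At the other end were isoforms of modest level on polysomes with an estimated level close to 0 in total RNA. Isoform uc003znw.1 had 10.2 and 14.7 FPKM in polysomal RNA and 0.00703 and 0.00431 FPKM in total RNA, a log2 difference of 3.72 ± 0.31 (SE; limma adjusted p = 0.00123) that became 6.87 at a pseudocount of 0.1 FPKM. Isoform uc001key.1 had 12.3 and 10.4 FPKM in polysomal RNA and 0.0234 and 0.0132 FPKM in total RNA, a log2 difference of 3.59 ± 0.22 (SE; limma adjusted p = 0.000677) that became 6.59 at a pseudocount of 0.1 FPKM. The ratios of mean FPKM were 2195 for uc003znw.1 and 620 for uc001key.1, over mean levels in total RNA so close to 0 that neither ratio has a firm size. Values this far under 1 FPKM come from a model that divides reads between overlapping isoforms, so other isoforms of the same gene may have taken the reads, which was not tested. Under the 19 alternative settings the log2 difference was -7.56 to -6.21 for uc001vxa.1 and -7.07 to -6.74 for uc032wyd.1. It was 3.47 to 6.87 for uc003znw.1 and 3.44 to 6.59 for uc001key.1. The 4 were picked as extremes of isoforms that had passed on these same libraries, so this is no separate support.

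**Figure D2:**
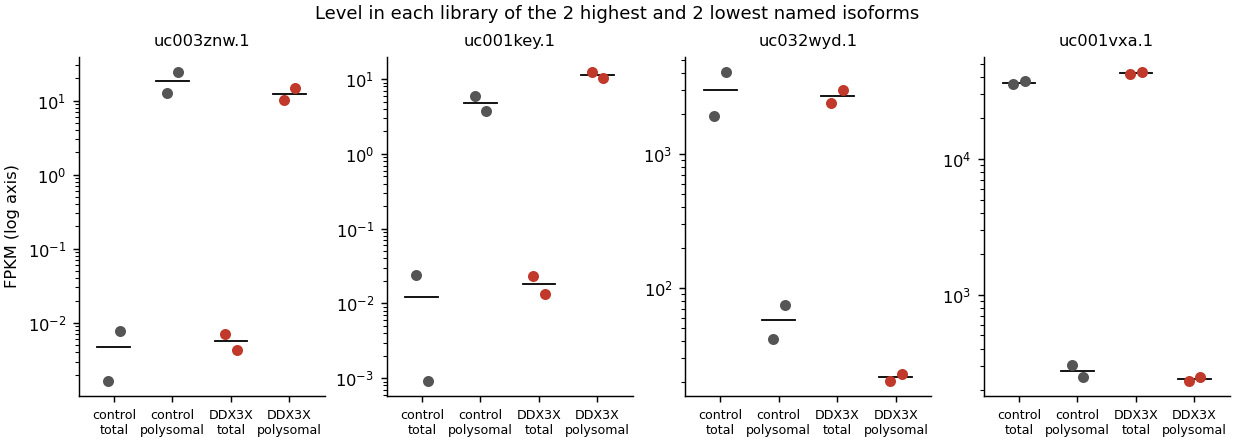
FPKM (log axis) of 4 isoforms in each of the 8 libraries, with a point per library, grey for control and red for DDX3X siRNA, and a line at each group's mean (n = 2). In every panel both polysomal groups lie together on one side of both total RNA groups, for example 233 to 303 against 35368 to 43129 FPKM for uc001vxa.1.

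How often an isoform was called depended on its level, taken as the mean FPKM over the 4 DDX3X siRNA libraries. Of 5235 isoforms under 2 FPKM, 124 (2.37%) were higher and 166 (3.17%) lower in polysomal RNA. From 5 to 20 FPKM the counts were 608 and 373 of 4130, and from 20 to 100 FPKM 714 (36.8%) and 177 (9.12%) of 1941. From 100 to 1000 FPKM 274 of 481 isoforms (57.0%) were higher and 49 (10.2%) lower. Above 2 FPKM the share of lower isoforms thus stayed between 6.02% and 10.2% up to 1000 FPKM, whereas the share of higher isoforms grew from 5.34% to 57.0%. These shares depended on the scaling. After quantile normalization the lower share went from 7.79% at 2 to 5 FPKM to 18.9% at 100 to 1000 FPKM, and the higher share from 6.29% to 37.0%. After median-of-ratios scaling the lower share was 10.7% to 17.0% in these classes, and the higher share reached 53.4%.

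Precision also grew with level. The median standard error fell from 0.29 under 2 FPKM to 0.11 between 100 and 1000 FPKM, so a given difference was more readily called among abundant isoforms. The differences themselves moved too: their median was -0.01 under 2 FPKM, 0.09 from 5 to 20, 0.32 from 20 to 100 and 0.56 from 100 to 1000 FPKM. After median-of-ratios scaling the median of the 100 to 1000 FPKM class was 0.47, and after quantile normalization, which forces the distributions of all libraries to be equal, it was 0.20. Without either polysomal replicate it was 0.60 (replicate 1 left out) and 0.51 (replicate 2 left out).

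The 58 most abundant isoforms, at 1000 FPKM or more, went the other way. Their median log2 difference was -0.27, with 19 lower (32.8%) and 12 higher (20.7%) in polysomal RNA. Of the 19, 4 were lower by over 4-fold, uc001vxa.1 and uc032wyd.1 among them. The median stayed below 0 in this class after median-of-ratios scaling (-0.35) and quantile normalization (-0.19), and without either polysomal replicate (-0.29 and -0.18). Without total RNA replicate 1 it was -0.06, and without total RNA replicate 2 it was -0.34. After quantile normalization the counts were nearly even, at 14 lower and 12 higher. With control siRNA 9 of the same isoforms (15.5%) were lower and 15 (25.9%) higher, with a median of 0.02. Of the 19 lower isoforms, 17 also had a negative difference with control siRNA, and 0 passed the test between siRNAs. Of the 12 higher ones, 10 had a positive difference with control siRNA and 1 passed. In 1 of the 19 and 2 of the 12 both libraries of the lower fraction were listed at 0. The class was set by level in the DDX3X siRNA libraries, and whether it differed between siRNAs was not tested.

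**Figure D3:**
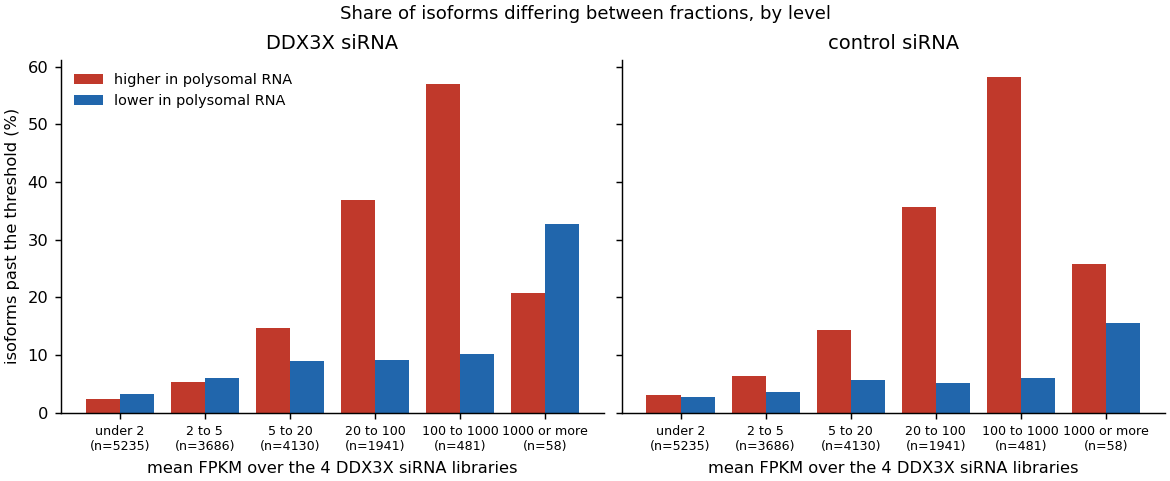
Percent of tested isoforms called higher (red) or lower (blue) in polysomal RNA, by class of mean FPKM over the 4 DDX3X siRNA libraries, with DDX3X siRNA on the left and control siRNA on the right for the same isoforms. The share of higher isoforms climbs to 57.0% at 100 to 1000 FPKM with DDX3X siRNA, and at 1000 FPKM or more the lower isoforms (32.8%) outnumber the higher ones (20.7%). With control siRNA the higher isoforms (25.9%) outnumber the lower ones (15.5%) in that class. Whether the class differed between siRNAs was not tested.

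Some isoforms were seen in 1 fraction and nearly missing from the other. With DDX3X siRNA, 60 isoforms had 1 FPKM or more in both total RNA libraries and under 0.1 FPKM in both polysomal libraries, and 34 of these were listed at 0 in both. The reverse pattern was found for 43 isoforms, 3 of them listed at 0 in both total RNA libraries. The 34 listed at 0 on polysomes had a median level of 77.3 FPKM in total RNA, and 26 of them were called lower. The 3 listed at 0 in total RNA had a median level of 141940 FPKM on polysomes, and all 3 were called higher. A listed 0 can be a failed estimate of the quantification, so these isoforms do not show an absence from either fraction. The lists with control siRNA had 61 and 88 isoforms, and 8 and 7 were common to both siRNAs. That is 13.3% and 16.3% of the DDX3X siRNA lists, and 13.1% and 7.95% of the control lists.

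Replicates of a fraction were closer than the fractions were to each other. The median absolute log2 difference across isoforms was 0.26 between the polysomal replicates and 0.17 between the total RNA replicates with DDX3X siRNA, against 0.38 to 0.42 between a polysomal and a total RNA library. Pearson correlations across isoforms, which are not independent, were 0.941 and 0.929 within fractions and 0.867 to 0.899 between them. For all 2935 calls both polysomal libraries lay on the same side of both total RNA libraries. Such a separation was found for 5337 isoforms (34.4%) with polysomal RNA higher and for 3956 (25.5%) with it lower, called or not.

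The polysomal replicates were not equal in scale. Replicate 1 was lower than replicate 2 by a median of 0.18 on the log2 scale, while the total RNA replicates differed by a median of 0.05. A value of 0 was listed for 158 tested isoforms in replicate 1 and for 100 in replicate 2. Leaving out polysomal replicate 1 gave 1782 higher and 573 lower isoforms, and leaving out replicate 2 gave 1374 and 1190. The median of all isoforms was 0.16 in the former and -0.03 in the latter. Without total RNA replicate 1 the counts were 781 and 348, and without replicate 2 they were 904 and 284. The higher share of all calls was 75.7% and 53.6% without polysomal replicates 1 and 2, and 69.2% and 76.1% without total RNA replicates 1 and 2. The balance between higher and lower isoforms thus depended on libraries of both fractions. Each of these fits rests on 1 library in an arm, which is assumed to vary like the other groups.

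Of the 1359 isoforms that differed by over 2-fold between fractions, 472 did not pass the threshold: 239 with polysomal RNA higher and 233 with it lower. Their median levels were 2.87 and 3.23 FPKM, against 12.6 and 6.26 FPKM for those that passed, and 125 and 143 of them had a library under 0.01 FPKM. The same count is not given here for isoforms that passed, so these counts do not set the 2 kinds apart.

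**Figure D4:**
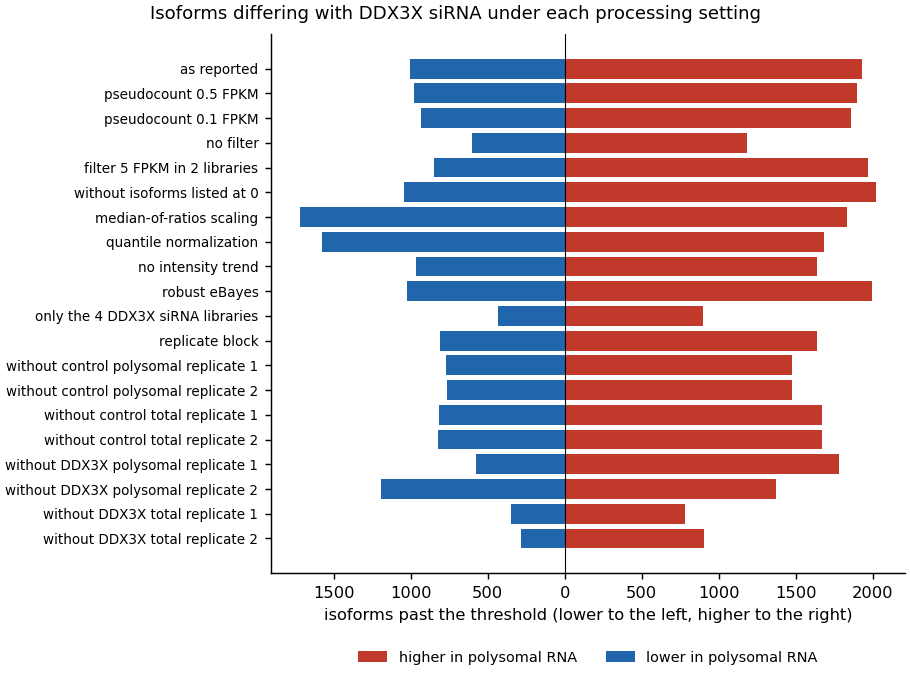
Number of isoforms called higher (red, to the right) and lower (blue, to the left) in polysomal RNA with DDX3X siRNA, as reported and under each of 19 alternative settings. Higher isoforms outnumber lower ones in every setting, by 1929 to 1006 as reported and by 1833 to 1719 after median-of-ratios scaling.

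Whether these differences were particular to cells with DDX3X siRNA was asked by setting them beside the control siRNA cells, whose libraries are separate. There 1976 isoforms (12.7%) had a higher and 646 (4.16%) a lower level on polysomes, 16.9% in all (limma, adjusted p under 0.05), and 1536 and 1479 after median-of-ratios scaling, which moved the median of all isoforms from 0.12 to -0.01. Without any 1 of the 4 control libraries the counts were 714 to 1108 and 179 to 248. Of the 1929 isoforms higher with DDX3X siRNA, 1892 (98.1%) also had a positive difference with control siRNA, with a median of 0.67 against 0.77. Of the 1006 lower isoforms, 898 (89.3%) had a negative difference with control siRNA, with a median of -0.55 against -0.91. Over all tested isoforms the sign was shared by 75.7%. Isoforms selected on the DDX3X siRNA values are expected to be less extreme in other libraries, so the smaller control medians are no test of a difference.

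With FPKM as deposited, most higher isoforms were called with both siRNAs and most lower isoforms were not. This contrast may depend on the scaling, under which the overlap was not counted. The control counts were 1536 higher and 1479 lower after median-of-ratios scaling, and 1357 and 1339 after quantile normalization. Of the 1929 higher isoforms, 568 (29.4%) were not called with control siRNA, and of the 1006 lower isoforms 576 (57.3%) were not. Both comparisons used the same estimate of the spread for each isoform, so calls with both siRNAs are not independent. Missing the threshold in 1 siRNA does not show a difference, which was tested directly. By the test of the difference between siRNAs, 1 of the 568 and 7 of the 576 passed (limma, adjusted p under 0.05). At an unadjusted p under 0.05, 114 of the 568 had a more positive difference with DDX3X siRNA and 240 of the 576 a more negative one, against 2.15% and 5.23% of all tested isoforms. These isoforms were chosen by the DDX3X siRNA differences, which the test between siRNAs also uses, so nothing is read from the larger shares. A small group of 7 isoforms was called in opposite directions, 5 higher and 2 lower with DDX3X siRNA. None of them passed the test of the difference, with adjusted p-values of at least 0.140, though all 7 had an unadjusted p under 0.05.

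None of the 4 named isoforms passed when their fraction differences were compared between siRNAs. Isoform uc001vxa.1 had 35368 and 37116 FPKM in total RNA and 303 and 246 FPKM in polysomal RNA with control siRNA. Its difference between fractions was 0.43 more negative on the log2 scale with DDX3X siRNA than with control (-0.43, 95% interval -0.82 to -0.04, limma adjusted p = 0.632). For uc032wyd.1, at 1933 and 4064 FPKM in total and 41.8 and 74.2 FPKM in polysomal RNA with control siRNA, the difference between siRNAs was -1.28 (95% interval -2.59 to 0.04, adjusted p = 0.688). For uc001key.1 it was 1.09 (95% interval 0.34 to 1.83, adjusted p = 0.493), with 5.97 and 3.75 FPKM in polysomal RNA and 0.0238 and 0.000930 FPKM in total RNA with control siRNA. For uc003znw.1 it was -0.48 (95% interval -1.51 to 0.56, adjusted p = 0.908), with 12.6 and 24.0 FPKM in polysomal and 0.00166 and 0.00780 FPKM in total RNA. Single libraries moved some of these values by over 1.5 times. For uc003znw.1 it was -0.92 and -0.04 without control polysomal replicates 1 and 2, and -0.23 and -0.72 without DDX3X polysomal replicates 1 and 2. For uc032wyd.1 it was -0.74 and -1.81 without control total replicates 1 and 2. For uc001vxa.1 it was -0.28 without control polysomal replicate 1 and -0.15 after quantile normalization. The intervals allow sizeable differences for uc032wyd.1, uc001key.1 and uc003znw.1, so equal behaviour is not shown.

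**Figure D5:**
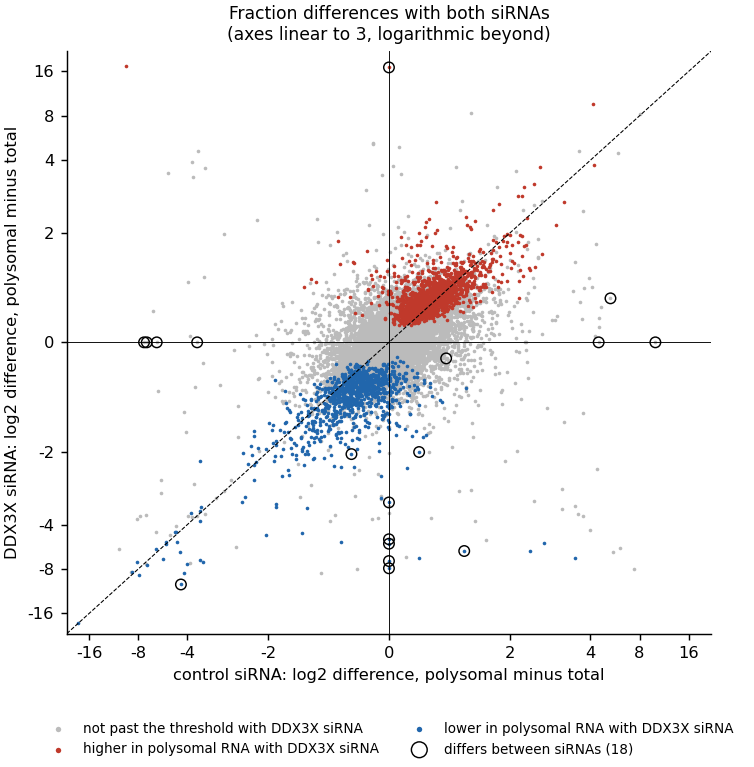
Log2 difference between polysomal and total RNA with DDX3X siRNA (vertical) against control siRNA (horizontal), 1 point per tested isoform, on axes that are linear to 3 and logarithmic beyond, with a dashed line of equality. Called isoforms lie mostly in the 2 quadrants of shared sign, and circles mark the 18 isoforms that passed the test between siRNAs. Of these, 12 were listed at 0 throughout with 1 siRNA, so no shift between fractions can be read from them.

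Over all tested isoforms 18 (0.116%) passed the test of the difference between siRNAs, 5 (0.0322%) with a polysomal minus total difference that was more positive with DDX3X than with control siRNA and 13 (0.0837%) with one that was more negative. All 5 were listed at 0 throughout with 1 siRNA, 4 in the 4 DDX3X siRNA libraries and 1 in the 4 control libraries. The same held for 2 and 5 of the 13. For these 12 isoforms no ratio between fractions exists with that siRNA, so a shift between fractions cannot be read from them. Of the 18, 10 were also called between fractions with DDX3X siRNA, 1 higher and 9 lower, while 8 were called with control and not with DDX3X siRNA. Of the 10, 2 were above 0 in all libraries. The first had 1.29 and 1.46 FPKM on polysomes and 8.69 and 8.41 FPKM in total RNA with DDX3X siRNA, against 1.93 and 1.63 FPKM on polysomes and 0.768 and 1.18 FPKM in total RNA with control siRNA. In this isoform the total RNA level stood apart and the polysomal level stayed low. The second had 5.31 and 6.24 FPKM on polysomes and 26.2 and 27.8 FPKM in total RNA with DDX3X siRNA, against 9.10 and 8.95 FPKM, and 14.4 and 14.5 FPKM, with control siRNA. Both fractions thus differed between siRNAs, in opposite directions. Another 2 above 0 throughout were called between fractions only with control siRNA. The first of them had 26.2 and 24.5 FPKM on polysomes and 31.8 and 30.7 FPKM in total RNA with DDX3X siRNA. With control siRNA it had 56.5 and 55.4 FPKM, and 27.8 and 29.2 FPKM. The other had 42.0 and 29.9 FPKM on polysomes and 15.4 and 25.6 FPKM in total RNA with DDX3X siRNA. With control siRNA it had 38.3 and 63.8 FPKM, and 0.0719 and 0.514 FPKM. All 4 were picked out after their values were seen, for being above 0 throughout. Without DDX3X polysomal replicate 2 the test called 5 and 20 isoforms, and without total RNA replicate 1 or 2 it called 5 and 8, or 8 and 8. With isoforms listed at 0 left out, limma called 0 isoforms in this test, and 1155 had an unadjusted p under 0.05.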

How the data were processed

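The authors deposited 1 table of FPKM per transcript isoform, with 65535 rows and a column for each of 8 libraries, per the file headers. TopHat2, Cufflinks 2.2.1 and hg38 are named in the submitters' processing notes. Annotation, settings and the scaling option are not given in the sources used here. With its header the table has 65536 lines, a spreadsheet row limit, so later isoforms may be missing and were not analysed here. Rows whose sample columns held text (14) or 1 repeated nonzero value (7) were dropped, and decimal commas were read as points in 5 cells. Of 65535 identifiers, 1 matched the reference tables, and it was not among the tested isoforms.

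Groups came from the labels and replicate numbers from the titles. Values were taken as log2(FPKM + 1), without scaling, and fitted with limma 3.58.1 (R 4.3.3) as a cell-means model of 4 groups, using eBayes with an intensity trend (residual degrees of freedom 4, prior 2.65). The Benjamini-Hochberg adjustment ran over all 15531 tested isoforms. On data simulated from these libraries' levels and variances, the DDX3X siRNA fractions were compared among 15531 isoforms. This recovered 53 of 100 isoforms set to differ 2-fold and 91 of 100 set to differ 4-fold, and 4.00% of calls were false. The changed isoforms had a mean of 2 FPKM or more and were above 0 in all 8 libraries, and folds were of FPKM + 1. All others were set not to differ. The recovery therefore does not cover lower isoforms, nor the false share data in which more isoforms differ. The comparison and the rule for naming were chosen with earlier results of these data known. Because identifiers have no gene names, at most 2 isoforms per direction were named by the rule. No 2 libraries shared an identical value above 0 in any tested isoform. Alternatives covered pseudocount, filter, scaling, variance model, libraries fitted, replicate block and each library left out. Python 3.11.15 and matplotlib 3.10.9 drew the plots.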

Additional observations from a re-analysis of the deposited data

Results flagged for a closer look

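The test of the difference between siRNAs passed for 18 isoforms (limma, adjusted p under 0.05 over 15531 isoforms). Of these, 5 had a more positive and 13 a more negative polysomal minus total value under DDX3X siRNA. All 5 were listed at 0 throughout with 1 siRNA, 4 in the 4 DDX3X siRNA libraries and 1 in the 4 control libraries. The same held for 2 and 5 of the 13. For these 12 isoforms no ratio between fractions exists with that siRNA, so they show no shift between fractions. Of the 18, 4 were above 0 in all 8 libraries. With isoforms listed at 0 left out, the test called 0 isoforms in either direction. The cause was not tested.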

How the results depend on the processing

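Of the 2935 calls between the DDX3X siRNA fractions 7 turned their sign after quantile normalization. Since no called isoform had overlapping libraries, the other settings could hardly turn a sign. The counts moved by over 1.5 times with no filter (1182 higher, 603 lower of 47101 isoforms) and with only the 4 DDX3X siRNA libraries (897 and 432, with fewer residual degrees of freedom). The lower count alone moved to 1719 after median-of-ratios scaling and 1575 after quantile normalization. Without single libraries the counts ranged from 781 to 1782 higher and from 284 to 1190 lower. With control siRNA the counts were 1286 and 382 with no filter, the lower count 1479 and 1339 after these scalings, and without single libraries they ranged from 714 to 2320 higher and from 179 to 770 lower. The test between siRNAs gave 79 isoforms with a more positive and 140 with a more negative difference with no filter, 0 and 0 without isoforms listed at 0 (1155 at an unadjusted p under 0.05), and 3 more positive at a pseudocount of 0.1 FPKM and with the filter at 5 FPKM. Without single libraries it gave 4 to 8 and 8 to 20. The median of all isoforms was 0.17 with the filter at 5 FPKM and -0.029 to 0.16 without single libraries. The cause was not tested beyond what these settings change by construction.

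The replicate numbers of the titles share no stated culture or day, and deviations of same-numbered libraries correlated at -0.08 to 0.08 across isoforms, so the numbers were not taken as pairs. With the replicate number as a block 1639 isoforms were higher and 810 lower with DDX3X siRNA, 1684 and 487 with control, and 3 and 9 in the test between siRNAs. Depth was unknown, so no limit from counting could be given.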
